A study of Homo sapiens with 90 samples.

Results

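HepaRG cells exposed to fenbuconazole at 3 µM were compared with the same cells exposed to its 5 lowest concentrations, pooled as 1 reference group. The comparison held 18 of the 90 array columns of the series: 3 at 3 µM and 15 in the low pool, made of 3 arrays each at 0.1, 0.03, 0.01, 0.003 and 0.001 µM. The arrays were chosen by agent and concentration alone. HepaRG is a human hepatic progenitor line that is differentiated in culture into hepatocyte-like and biliary-like cells. The cells were treated on day 8 after plating, for 24 h, with the chemical in DMSO at a final 0.2%, so every array of both groups carried the vehicle. The other columns hold fenbuconazole at 0.3, 1 and 10 µM, DMSO alone, and the same concentrations of imazalil and 2,4-D. The DMSO arrays did not enter the comparison, so it does not rest on the 3 vehicle arrays that the chemicals share. Each of the 18 compared arrays carries a replicate number of 1 to 3. It stands for an independent experiment on its own batch of cells, and it was kept as a block.

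Fenbuconazole is a triazole fungicide. Azole fungicides act on fungi by inhibiting the lanosterol demethylase of sterol synthesis, whose human counterpart is encoded by CYP51A1. In hepatocytes many lipophilic chemicals also activate the nuclear receptors CAR and PXR, which pair with RXR on repeated half-sites in DNA and switch on cytochrome P450 genes of the CYP2B, CYP3A, CYP2A and CYP2C families. The aryl hydrocarbon receptor (AHR) does the same for CYP1A1 and CYP1A2.

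At 3 µM, 7 of 19774 genes passed the threshold, an adjusted p under 0.05 by limma with Benjamini-Hochberg adjustment over all genes, which is 0.0354% of those tested. Higher at 3 µM were CYP2B6, CYP3A4, ZSCAN25, CYP2A6, CYP3A7 and TMEM97 (6 genes, 0.0303%), and TM6SF2 was lower (1 gene, 0.00506%). Of these 7 genes, 4 encode P450 enzymes on the list of CAR and PXR targets. In each of the 7, the 3 arrays at 3 µM lay outside the range of all 15 low arrays, on the same side, as they did for 36 genes above (0.182% of all genes) and 30 below (0.152%). Without adjustment, 876 genes (4.43%) had a p under 0.05, of which 377 were higher (1.91%) and 499 lower (2.52%). Over the 54715 probe sets, 12 passed the threshold (0.0219%). The median log2 difference over all genes was -0.01, the SD of the differences was 0.11, and 18 genes differed by over 0.5 on the log2 scale.

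**Figure D1:**
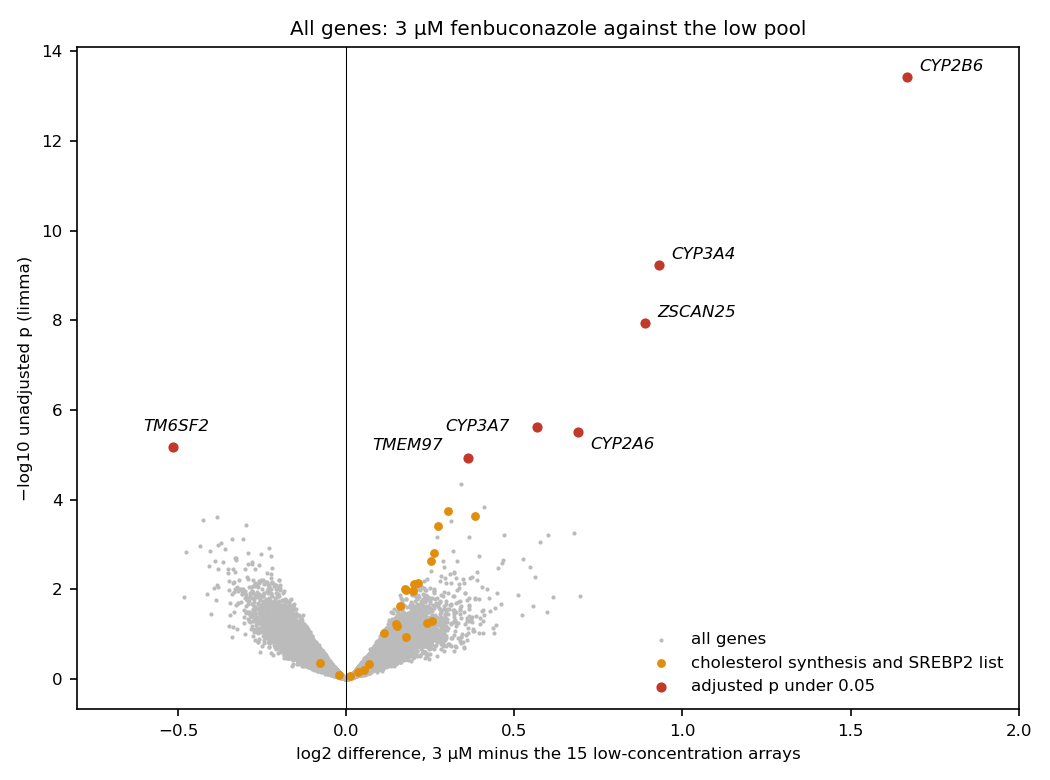
Log2 difference between the 3 arrays at 3 µM and the 15 low-concentration arrays (x axis) against the unadjusted p of limma on a −log10 scale (y axis), 1 point per gene, 19774 genes. The 7 genes past the threshold are named, with CYP2B6 at 1.67 and TM6SF2 at -0.52, and the members of the cholesterol list lie mostly to the right of 0.

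The promoters of 3 of the P450 genes that rose are shown because CAR and PXR bind half-sites of the AGGTCA kind and each of these windows holds one. The sequences are the 250 bases before the RefSeq gene start in GRCh38.p14, read on the strand of the gene. They are at chr19:40991032-40991281 on the plus strand for CYP2B6, chr7:99784185-99784434 on the minus strand for CYP3A4 and chr7:99735197-99735446 on the minus strand for CYP3A7. Capitals mark AGGTCA or AGTTCA on either strand.
CYP2B6: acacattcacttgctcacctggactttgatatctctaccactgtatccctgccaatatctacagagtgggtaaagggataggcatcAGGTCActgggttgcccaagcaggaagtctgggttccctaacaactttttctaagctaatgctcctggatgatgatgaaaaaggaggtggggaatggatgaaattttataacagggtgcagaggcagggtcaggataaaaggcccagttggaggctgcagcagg
CYP3A4: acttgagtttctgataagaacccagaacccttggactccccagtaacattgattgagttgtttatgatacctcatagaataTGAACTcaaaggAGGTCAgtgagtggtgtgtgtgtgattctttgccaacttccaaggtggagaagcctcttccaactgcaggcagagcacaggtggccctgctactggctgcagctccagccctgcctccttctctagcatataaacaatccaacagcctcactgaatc
CYP3A7: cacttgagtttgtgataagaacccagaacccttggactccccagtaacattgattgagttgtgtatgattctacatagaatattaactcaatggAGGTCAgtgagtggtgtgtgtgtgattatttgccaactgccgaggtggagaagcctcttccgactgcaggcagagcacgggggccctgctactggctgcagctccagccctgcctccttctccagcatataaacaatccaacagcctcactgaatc
Each of these 3 windows held AGGTCA once, and they were picked for that. The motif was found in 12.1% of the 27305 promoters of the same length, a share given as background and not as a test. The CYP3A4 and CYP3A7 windows are alike over most of their length, so they are not separate cases. CYP3A4 held AGTTCA as well, on the opposite strand and upstream of its AGGTCA, and 8.91% of promoters held that motif. Neither motif was in the windows of CYP2A6, ZSCAN25, TMEM97 or TM6SF2. GCGTG, the core of the element bound by AHR, occurred 3 times in TMEM97 and once in TM6SF2, against 31.9% of promoters with at least 1 match. The motifs did not overlap each other in these windows. A match describes the letters only, and binding was not measured.

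CYP2B6, which metabolises drugs such as bupropion and is the classic target of CAR, had the largest difference of all genes. Its log2 expression at 3 µM was 6.47 in replicate 1, 6.03 in replicate 2 and 6.06 in replicate 3, while the 15 low arrays ran from 4.34 through a median of 4.46 to 4.84. The groups did not overlap, and the gap between them was wider than the whole range of the low pool. The difference was 1.67 on the log2 scale (SE 0.09, adjusted p = 7.46e-10 by limma), or 3.18-fold with a 95% interval of 2.78 to 3.62. Within the replicates it was 1.88, 1.53 and 1.59. A second CYP2B6 probe set, dimmer at a mean of 3.93 in the low pool, differed by 0.63 and was not past the threshold (adjusted p = 0.154 over 54715 probe sets). A brighter one, at 6.97 in the low pool, also carries the symbol of the pseudogene CYP2B7P. It differed by 1.91 (SE 0.09) and was past the threshold over probe sets.

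CYP3A4, the main drug-metabolising P450 of adult liver, rose by 0.93 (SE 0.09, adjusted p = 5.71e-06 by limma), a fold of 1.90. Its values at 3 µM were 10.80, 10.40 and 10.39 in replicates 1, 2 and 3, against 9.28 to 9.96 with a median of 9.58 in the low pool. All 3 arrays were above every low array, by a smaller margin than for CYP2B6. The differences within the replicates, 0.97, 0.89 and 0.93, were close to each other. Of the other CYP3A4 probe sets, a pair that also passed the threshold differed by 0.95 and 0.78, and the last, at a level of 2.24 in the low pool, differed by -0.00. The DMSO arrays, at 9.87 ± 0.16 (SD, n = 3), lay 0.27 above the low pool. Set against DMSO in place of the low pool, the difference of CYP3A4 was 0.66 and no longer past the threshold (adjusted p = 0.385 by limma with 3 arrays in each group).

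CYP3A7, the fetal form of the same subfamily, rose by 0.57 (SE 0.09, adjusted p = 0.0117 by limma). It read 9.93, 9.67 and 9.73 at 3 µM, and the low pool ran from 8.94 through 9.21 to 9.50, so the groups did not overlap. This probe set is of the type whose probes can also match related transcripts, as are the 3 CYP3A4 probe sets past the threshold, so CYP3A4 and CYP3A7 cannot be fully separated by these values. A CYP3A7 probe set without that mark differed by 0.33 and did not pass (adjusted p = 0.973 over probe sets), and a dim one differed by -0.03. With the mean of its probe sets the difference of CYP3A7 was 0.29 (adjusted p = 0.184 by limma), and against DMSO it was 0.34 (adjusted p = 0.414). CYP3A5 and CYP3A43, which lie beside them in the CYP3A cluster on chromosome 7, differed by 0.15 (SE 0.08) and 0.56 (SE 0.18), both with an adjusted p of 0.962.

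ZSCAN25 encodes a zinc finger protein with a SCAN domain, and its gene lies next to the CYP3A cluster on chromosome 7. It rose by 0.89 (SE 0.10, adjusted p = 7.73e-05 by limma), from a low pool of 5.91 to 6.60, median 6.42, to 7.36, 6.97 and 7.35 in replicates 1, 2 and 3. The arrays at 3 µM stood clear of the pool in every replicate. The value comes from 1 of 3 probe sets of this gene. The other 2 were dimmer, at 4.75 and 4.64 in the low pool, and differed by 0.15 and -0.12. With the mean of the probe sets in place of the brightest one, the difference was 0.31 and did not pass (adjusted p = 0.169 by limma). On the other side of ZSCAN25, TMEM225B differed by 0.06 and ZNF655 by -0.02. Farther out on that side, FAM200A differed by 0.31 (SE 0.16, adjusted p = 0.962 by limma).

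CYP2A6, the nicotine-oxidising P450, rose by 0.69 (SE 0.11, adjusted p = 0.0125 by limma). It read 8.12, 7.85 and 8.20 at 3 µM against 7.00 to 7.73, median 7.40, in the low pool. The array of replicate 2 was the nearest to the low pool and still above all of it. All 4 CYP2A6 probe sets passed the threshold over probe sets, with differences of 0.52 to 0.69, and all are of the type that can match related transcripts. CYP2A6 lies in the same cluster on chromosome 19 as CYP2B6. The measured genes between them, CYP2A7 and the pseudogene CYP2B7P, differed by 0.47 (SE 0.12) and 0.68 (SE 0.17), each with an adjusted p of 0.641. The CYP2A7 probe set can also match related transcripts, so its value cannot be fully separated from that of CYP2A6. On the far side, CYP2A13 differed by 0.06 and CYP2F1 by -0.17.

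TMEM97, the sigma-2 receptor, binds sterols and acts in cholesterol trafficking. It rose by 0.36 (SE 0.06, adjusted p = 0.0336 by limma), a fold of 1.29. The values at 3 µM were 10.61, 10.52 and 10.66, and the low pool ran from 10.10 through 10.22 to 10.38. Although the change was small, the 3 arrays lay above all low arrays, and the differences within the replicates were 0.37, 0.36 and 0.36. Its 4 probe sets differed by 0.26 to 0.36 and each was separated from the low pool, but none passed over all probe sets, where the lowest adjusted p was 0.0501.

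TM6SF2, an endoplasmic reticulum protein needed to load lipid onto very low density lipoproteins in liver, was the 1 gene that fell. It read 5.39, 5.27 and 5.40 at 3 µM, below the whole low pool of 5.71 to 6.19 with a median of 5.87. It fell by 0.52 on the log2 scale (SE 0.09, adjusted p = 0.0226 by limma), a ratio of 0.699. A second probe set differed by -0.40 (adjusted p = 0.808 over probe sets) and a dim one by -0.01, and with the mean of the probe sets the difference was -0.31 (adjusted p = 0.0826 by limma). Its neighbours on chromosome 19, HAPLN4 and SUGP1, differed by -0.15 and 0.08.

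Leaving out any 1 array at 3 µM, or all arrays of any 1 replicate, ended the calls of CYP2A6, CYP3A7, TMEM97 and TM6SF2 and kept those of CYP2B6, CYP3A4 and ZSCAN25. Over these 6 settings the difference of CYP2A6 was 0.61 to 0.74, of CYP3A7 0.52 to 0.60, of TMEM97 0.36 to 0.37 and of TM6SF2 -0.53 to -0.50, so the sizes moved little while the adjusted p rose to at least 0.0839.

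**Figure D2:**
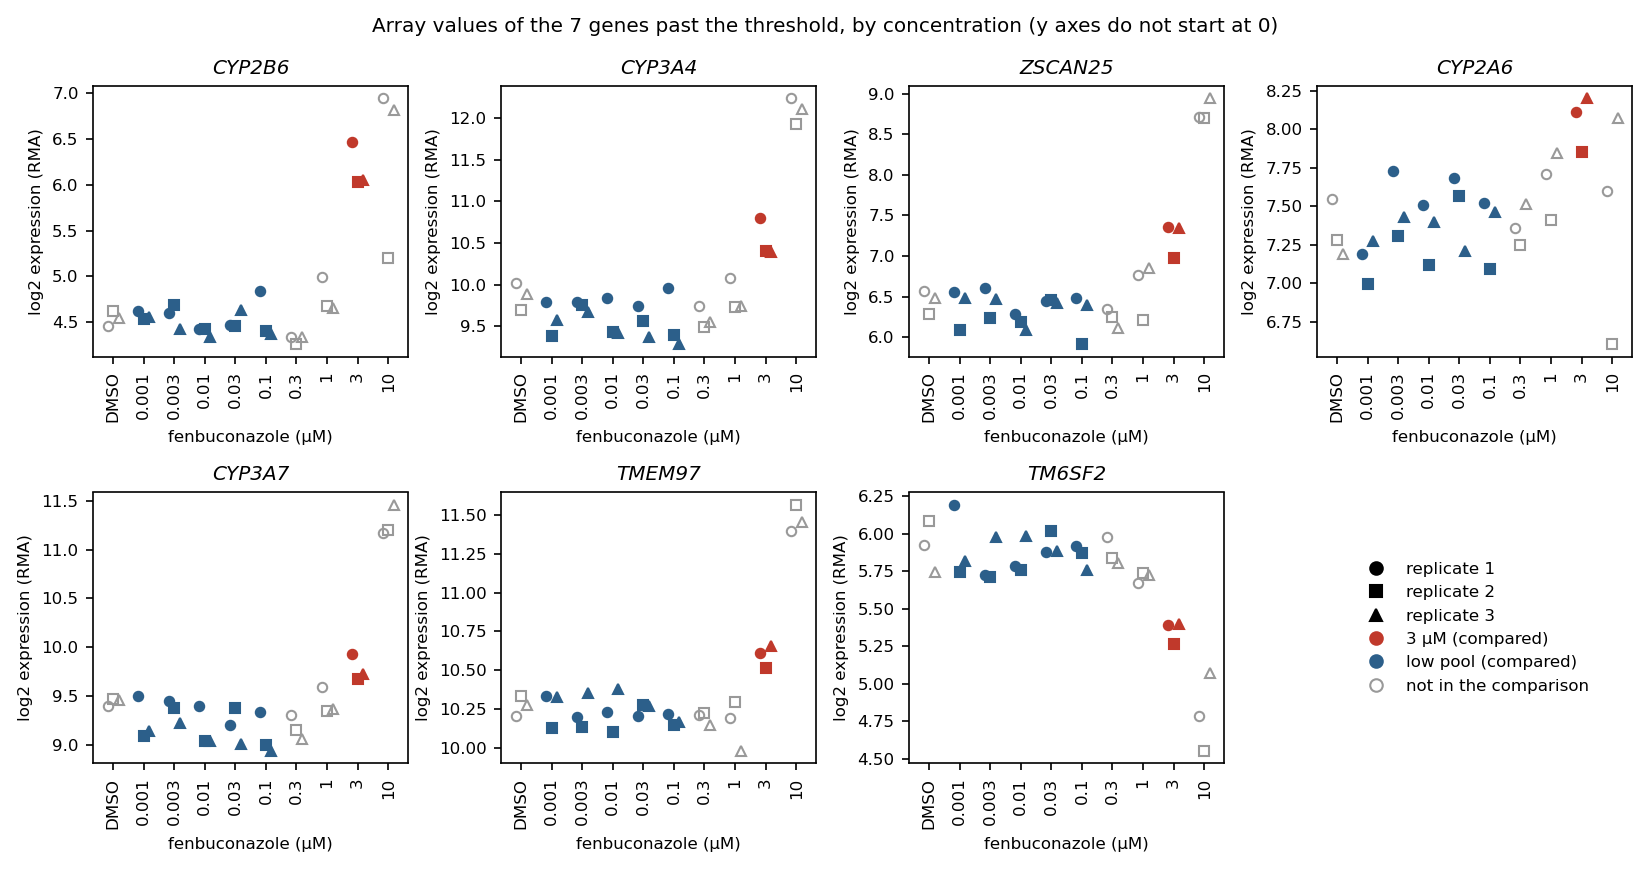
Log2 expression (y axis, RMA values) of the 7 genes past the threshold by fenbuconazole concentration (x axis, µM, with DMSO at the left), 1 point per array, marker shape by replicate. Filled red points are the 3 arrays at 3 µM and filled blue points the 15 low arrays, and the 2 sets do not overlap in any panel. CYP2B6 at 10 µM spreads from 5.21 to 6.94.

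The low concentrations were pooled as 1 reference, and whether they differ among themselves was tested over the 15 arrays. By a moderated F over the 5 concentrations with limma, 0 genes (0%) passed an adjusted p under 0.05, and 692 genes (3.5%) had an unadjusted p under 0.05. For CYP2B6 the means of the 5 concentrations lay between 4.40 ± 0.05 at 0.01 µM and 4.57 ± 0.05 at 0.001 µM (SD, n = 3 each). CYP2A6 had the lowest p of the 7 genes in this test (unadjusted p = 0.107 by limma), with means from 7.16 ± 0.14 at 0.001 µM to 7.49 ± 0.22 at 0.003 µM. These means span less than the differences of CYP2B6 and CYP2A6 at 3 µM.

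The concentrations on either side of 3 µM were set against the same low pool in a fit of all 30 fenbuconazole and DMSO columns, so their values share that reference. In that fit 1 gene passed at 0.3 µM (0.00506%), 0 at 1 µM (0%), 4 at 3 µM (0.0202%) and 522 at 10 µM (2.64%). CYP2B6 was 4.78 ± 0.19 at 1 µM, 6.19 ± 0.25 at 3 µM and 6.32 ± 0.97 at 10 µM (SD, n = 3 each). The arrays at 10 µM ran from 5.21 to 6.94 and so spanned those at 3 µM. The low value was that of replicate 2. Replicates 1 and 3 at 10 µM, at 6.94 and 6.81, lay above all 3 arrays at 3 µM. CYP3A4 went from 9.85 ± 0.19 at 1 µM to 12.09 ± 0.15 at 10 µM, and ZSCAN25 from 6.61 ± 0.35 to 8.79 ± 0.14. CYP3A7 reached 11.28 ± 0.16 and TMEM97 11.47 ± 0.09 at 10 µM. TM6SF2 was 5.71 ± 0.04 at 1 µM and 4.80 ± 0.26 at 10 µM. CYP2A6 at 10 µM was 7.43 ± 0.75, with a mean difference of 0.06 from the low pool. Its arrays there read 7.60, 6.61 and 8.07 in replicates 1, 2 and 3, so this mean rests on replicates that disagree. Replicate 2 was the lowest array at 10 µM for CYP2B6 as well.

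On the list of CAR and PXR targets, 25 of 30 members were measured, 4 rose and 0 fell. The 4 were CYP2B6, CYP3A4, CYP3A7 and CYP2A6. The median log2 difference was 0.15 and 19 of the 25 were above 0, beside a median of -0.01 and 46.3% above 0 over all genes. At an unadjusted p under 0.05, 12 members were higher (1.91% of all genes were) and 0 lower. CYP2C8, a P450 that oxidises paclitaxel, differed by 0.30 (SE 0.10, adjusted p = 0.962 by limma) and was the highest of the 6 arrays in each replicate. A dimmer CYP2C8 probe set differed by 0.48 (adjusted p = 0.0514 over probe sets). ABCB1, the efflux pump P-glycoprotein, differed by 0.18 and the sulfotransferase SULT2A1 by 0.16. POR, which passes electrons to all microsomal P450 enzymes, differed by 0.15 (SE 0.07), and ALAS1, the first enzyme of heme synthesis, by 0.10 (SE 0.06), with adjusted p of 0.962 each. The receptor CAR itself, NR1I3, differed by -0.05.

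The list of cholesterol synthesis and SREBP2 targets had 23 of 28 members measured, and 0 passed the threshold by limma. Besides enzymes of the pathway it holds the sterol-responsive genes ABCA1, ABCG1 and MYLIP, which act in sterol efflux and receptor turnover. Of these 23, 21 lay above 0, beside 46.3% of all genes. The median was 0.18, the highest of the 36 lists, and the values ran from -0.08 for SREBF2 to 0.38 for ACAT2. At an unadjusted p under 0.05, 12 members were higher (1.91% of all genes were) and 0 lower (2.52%). The 3 arrays at 3 µM lay above all 15 low arrays in 6 members, TM7SF2, ACAT2, CYP51A1, FDPS, NSDHL and SQLE, as in 0.182% of all genes. A further count had 11 members highest in each replicate, as were 0.592% of all genes. In 16 of the 23 members the difference was above 0 within each of the 3 replicates, a count for which the share over all genes was not taken. ACAT2, which makes acetoacetyl-CoA, read 9.22 ± 0.05 at 3 µM (SD, n = 3) against 8.54 to 9.03 in the low pool. TM7SF2, a sterol reductase, differed by 0.30 (SE 0.07, adjusted p = 0.346 by limma). CYP51A1, the lanosterol demethylase, differed by 0.27 (SE 0.06, adjusted p = 0.484), and by 0.39, 0.29 and 0.14 within the replicates. HMGCS1, the cytosolic HMG-CoA synthase, differed by 0.25 (SE 0.07, adjusted p = 0.962). With an intensity trend and a robust prior in limma, ACAT2, CYP51A1 and FDPS passed, with adjusted p of 0.0133, 0.00225 and 0.0446. At 10 µM, in the fit of 30 columns, 17 of the 23 members passed as higher.

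**Figure D3:**
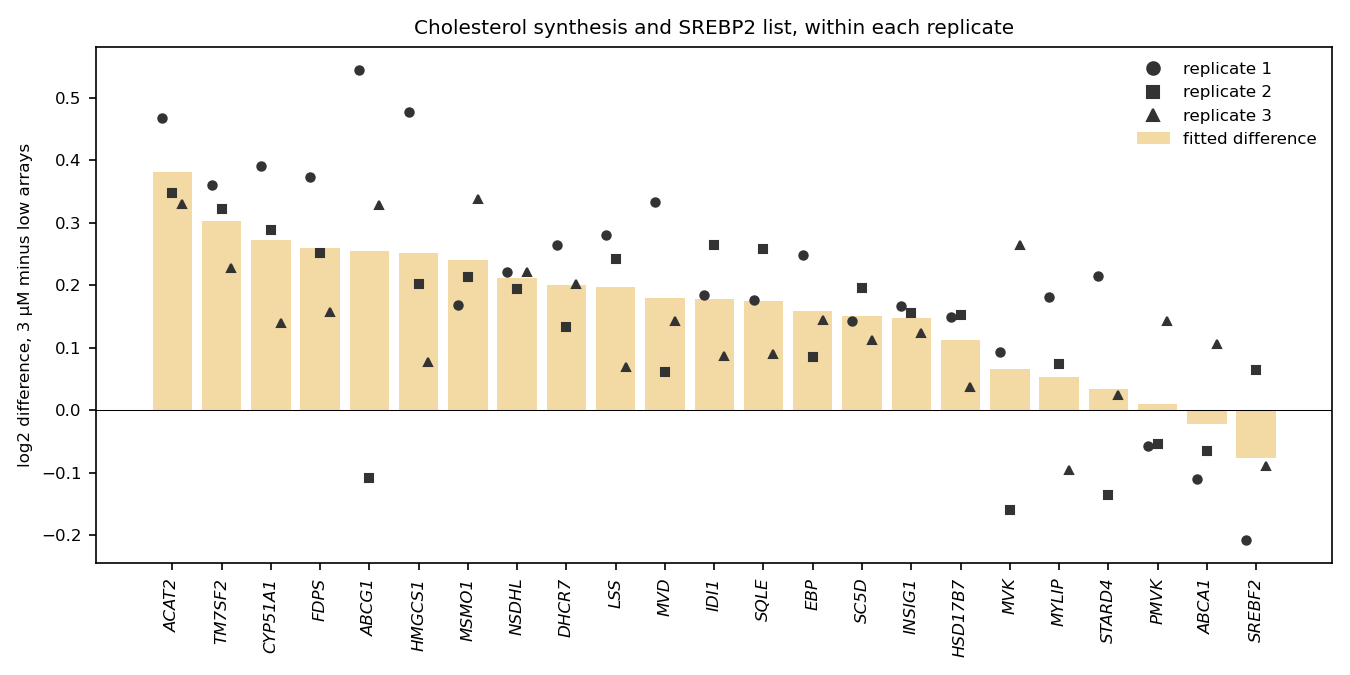
Log2 difference of 3 µM from the low arrays (y axis) for the 23 measured members of the cholesterol list (x axis). Bars give the fitted difference and points the difference within each replicate, and 21 bars lie above 0, from ACAT2 at 0.38.

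Lists of lipid export and plasma proteins leaned the other way without single members past the threshold other than TM6SF2. Over all genes 46.3% were above 0. The markers of endothelium had a median of -0.10 with 7 of 10 below 0, so a lean of this size was not particular to these lists. Of 17 lipoprotein and lipid export genes, 16 were below 0, with a median of -0.09, and 1 fell. APOA5, an activator of triglyceride lipolysis, differed by -0.21 (SE 0.09, adjusted p = 0.962 by limma), and MTTP, the transfer protein that works with TM6SF2 in particle loading, by 0.16. Of 24 complement and coagulation genes, 20 were below 0, with a median of -0.07, and 0 passed by limma (3 lower at an unadjusted p under 0.05, with 2.52% of all genes lower). Coagulation factor F10 differed by -0.18 and its 3 arrays were below all low arrays, and PROC, protein C, differed by -0.29. In replicates 1, 2 and 3, F10 read 6.48, 6.59 and 6.62 at 3 µM and 6.58, 6.59 and 6.71 with DMSO alone. Among 20 fatty acid synthesis genes, TM6SF2 fell and 0 rose. SREBF1, the transcription factor of that pathway, differed by -0.22 and its arrays were below all low arrays. Of 28 P450 genes on none of the receptor lists, 0 passed by limma and 20 were below 0 (1 higher and 3 lower at an unadjusted p under 0.05). CYP8B1, the bile acid 12-hydroxylase, differed by -0.31 (SE 0.08, adjusted p = 0.654) and was lowest in each replicate, as were 0.688% of all genes. In replicates 1, 2 and 3, CYP8B1 read 7.47, 7.63 and 7.72 at 3 µM and 7.77, 7.75 and 7.69 with DMSO alone. CYP19A1, aromatase, differed by 0.29.

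None of the 12 AHR targets passed the threshold by limma (0 at an unadjusted p under 0.05), with a median of 0.05. CYP1A1, the most inducible AHR target, read 2.85 ± 0.20 at 3 µM and 2.77 ± 0.23 in the low pool (SD, n = 3 and 15), a difference of 0.08 (95% interval -0.17 to 0.32), and the groups overlapped. Without replicate 1 its difference was -0.00. At 10 µM CYP1A1 read 4.95, 5.91 and 4.72 in replicates 1, 2 and 3, above its values at 3 µM. In the fit of 30 columns, 3 of the 12 AHR targets passed as higher at 10 µM. Of all genes, 2.64% passed there in either direction. CYP1A2 differed by 0.25 (SE 0.13, adjusted p = 0.962), and 1 of its 3 arrays at 3 µM, at 4.58, lay above the highest low array at 4.53. Of 17 NRF2 targets 16 were above 0, beside 46.3% of all genes, with a median of 0.05. Of these targets 0 passed by limma (1 at an unadjusted p under 0.05). AKR1B10, an aldo-keto reductase, differed by 0.16 and GCLM, a subunit of the glutathione-making ligase, by 0.28. In replicates 1, 2 and 3, AKR1B10 read 12.01, 11.98 and 11.89 at 3 µM and 11.89, 11.95 and 11.92 with DMSO alone. INHBE, a hepatokine subunit, differed by -0.18 (SE 0.13), and by 0.02 where DMSO was the reference. The other 23 gene lists, such as those of ER stress, p53, heat shock, the cell cycle, the interferon response and the acute phase, held 340 measured genes, of which 0 passed by limma. At an unadjusted p under 0.05, 8 of them were higher and 10 lower, beside 1.91% and 2.52% of all genes. The list medians lay between -0.03 and 0.07.

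**Figure D4:**
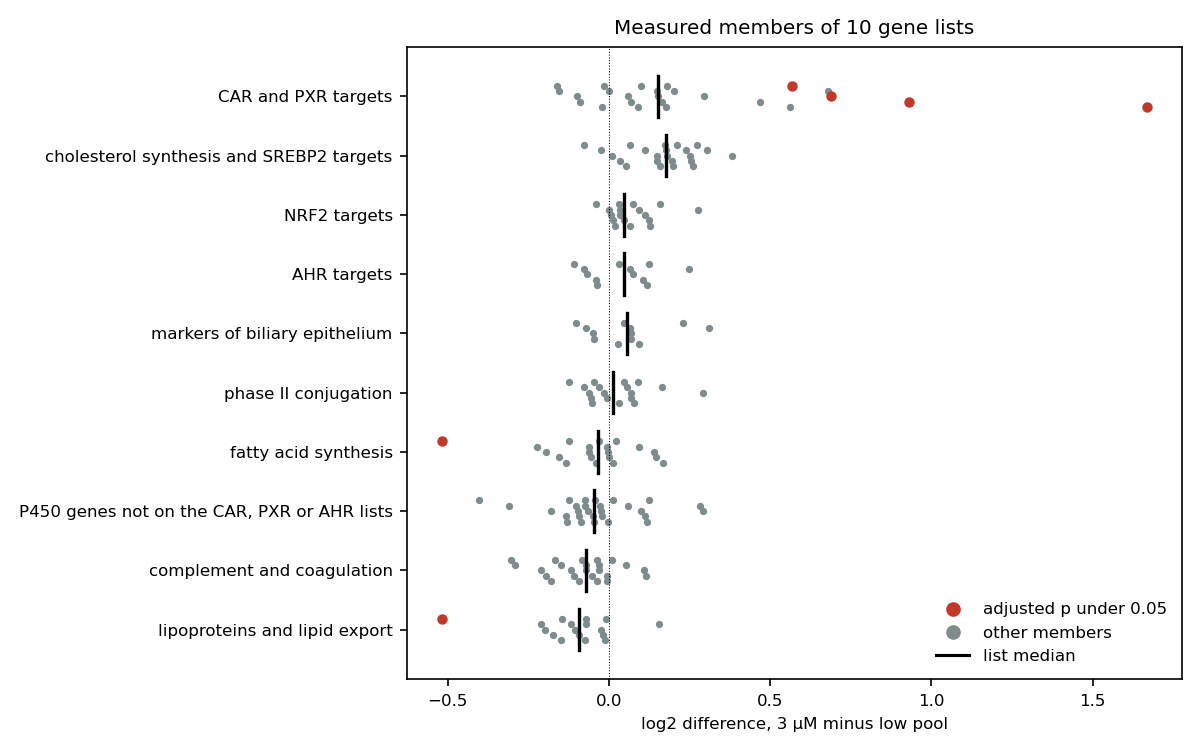
Log2 difference of 3 µM from the low pool (x axis) for the measured members of 10 gene lists (rows), with the list median as a black bar and genes past the threshold in red. The CAR and PXR list holds 4 red points above 0, the cholesterol list has the highest median at 0.18 with none past the threshold, and TM6SF2 at -0.52 appears in both lipid lists.

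The arrays were checked for the markers of the labelled cells. In the low pool the mean log2 expression was 13.23 for ALB, 13.01 for TF and 13.32 for SERPINA1, which hepatocytes secrete, and 10.03 for KRT19, a keratin of biliary epithelium, while the biliary keratin KRT7 was at 3.13. Of 15 hepatocyte markers, CYP3A4 rose and 0 fell, and none of the markers of biliary epithelium (12), mesenchyme (12), endothelium (10) or immune cells (14) passed the threshold. The summed linear signal of a marker list at 3 µM was 1.00 times that of the low pool for hepatocytes, 1.02 for biliary epithelium, 0.959 for mesenchyme, 1.01 for endothelium and 0.943 for immune cells. SPP1 (osteopontin), on the biliary list, differed by 0.31 (SE 0.07, adjusted p = 0.434 by limma). In such bulk samples fewer cells of a type and less RNA per cell cannot be told apart.

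The 18 arrays had medians between 2.84 and 2.93, the 3 arrays at 3 µM all near 2.84 at the low end, and pairs of arrays correlated at r = 0.989 to 0.996. Centring each array on its median moved the median difference over genes from -0.01 to 0.02 and left the number of calls at 7. In each replicate the sample code of the 3 µM array in the labels lies below those of all 5 low arrays, so an order of processing by code, if it was used, and the comparison cannot be told apart.

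The levels of 5 genes followed CYP2B6 most closely over the 27 treated fenbuconazole arrays after the mean of each replicate was subtracted: CYP3A4 (r = 0.855), ZSCAN25 (0.833), NSDHL (0.821), TSKU (0.818) and CYP3A43 (0.817). NSDHL encodes a sterol dehydrogenase of cholesterol synthesis. The probe sets of CYP3A4 and CYP3A43 can also match related transcripts, so their r are not those of fully separate genes. These r are descriptions over arrays that share cells and concentrations. Over the 15 low arrays alone the r of CYP3A4 with CYP2B6 was 0.395 and that of NSDHL 0.125.

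Imazalil, an imidazole fungicide, and 2,4-D, a phenoxy herbicide, were tested at the same 3 µM for the same 24 h, and the change of each from its own low pool of 15 arrays was compared with that of fenbuconazole in limma. These 2 comparisons cover 19774 genes each. The change differed between fenbuconazole and imazalil for 5 genes (0.0253%), while 2379 genes (12%) had an unadjusted p under 0.05. Without replicate 2 the count was 27. All 5 changed more with imazalil. CYP2B6 changed by 1.67 with fenbuconazole and 3.34 with imazalil, a difference of -1.67 (SE 0.14, adjusted p = 3.35e-09). The imazalil changes were 2.08 for CYP3A4, 1.59 for CYP3A7 and 2.13 for ZSCAN25, against the 0.93, 0.57 and 0.89 above. CYP1A1 changed by 1.74 with imazalil and 0.08 with fenbuconazole, a difference of -1.67 (SE 0.21, adjusted p = 9.27e-06). The fenbuconazole levels of CYP1A1, 2.77 and 2.85, lie near the array medians of 2.84 to 2.93, and whether its probe set is above background there was not tested, so a change from such a level may be understated.

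For other genes of the comparison, the difference between these azoles did not pass the threshold. It was -0.55 for CYP2A6 (95% interval -0.86 to -0.25, adjusted p = 0.256 by limma), which changed by 1.24 with imazalil. For TM6SF2 it was -0.41 (-0.73 to -0.10, adjusted p = 0.329), with an imazalil change of -0.10, and for TMEM97 0.19 (-0.01 to 0.40, adjusted p = 0.436). CYP51A1 changed by 0.04 with imazalil, and the difference was 0.23 (0.06 to 0.40, adjusted p = 0.310). ACAT2 changed by -0.05, and the difference was 0.43 (0.19 to 0.66, adjusted p = 0.256). The interval of TMEM97 included 0, and the other 4 intervals, which are not adjusted, did not.

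Against 2,4-D the change differed for 2 genes (0.0101%), with 714 (3.61%) at an unadjusted p under 0.05. CYP2B6 changed by 0.04 with 2,4-D, a difference of 1.63 (SE 0.13, adjusted p = 2.99e-10 by limma), and CYP3A4 by 0.18, a difference of 0.75 (SE 0.11, adjusted p = 0.000512). For CYP3A4 this difference no longer passed without replicate 1 (0.68, adjusted p = 0.243), without replicate 3 (0.76, adjusted p = 0.0836) or without the block (adjusted p = 0.453). ZSCAN25 and CYP2A6 changed by 0.11 and -0.04 with 2,4-D, and their differences of 0.78 (0.46 to 1.10) and 0.73 (0.43 to 1.04) each had an adjusted p of 0.106.

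**Figure D5:**
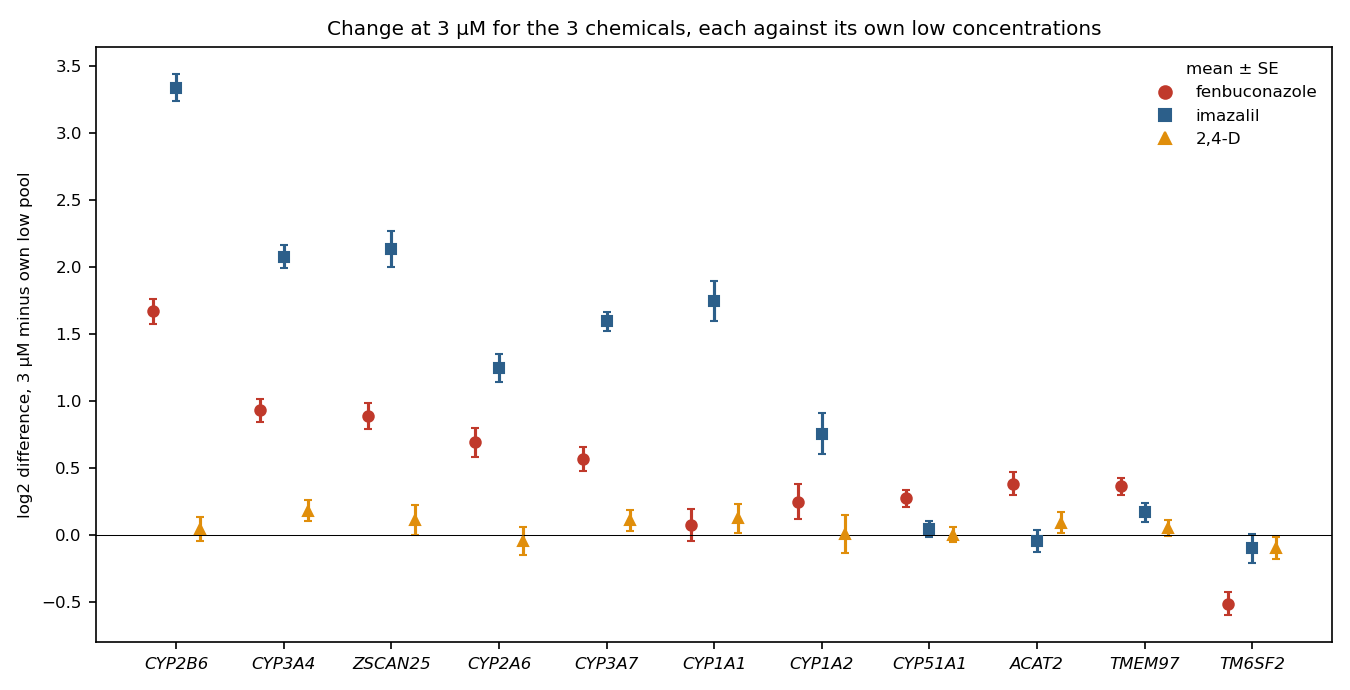
Log2 difference of 3 µM from the low pool of the same chemical (y axis, mean ± SE of the fit) for 11 genes (x axis) with fenbuconazole, imazalil and 2,4-D. In fitted value imazalil is highest for the P450 genes of the CYP2B, CYP3A, CYP2A and CYP1A families and for ZSCAN25, fenbuconazole is highest for CYP51A1, ACAT2 and TMEM97, and 2,4-D stays between -0.10 and 0.18. The difference between fenbuconazole and imazalil passed the threshold for CYP2B6, CYP3A4, ZSCAN25, CYP3A7 and CYP1A1.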

How the data were processed

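Gene expression was measured on Affymetrix HT HG-U133+ PM arrays of HepaRG cells, 3 replicates per concentration. The authors deposited log2 expression values, made by RMA (background correction, quantile normalization and probe set summary) for each chemical on its own, with the 3 vehicle arrays included each time. RMA and Partek are named in the submitters' processing notes, with no version stated in the sources used here. Precision is limited by how many arrays there are.

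Here limma (version 3.58.1, R 4.3.3) fitted the 18 columns (lmFit, eBayes) with the replicate number as a fixed block and 14 residual degrees of freedom, with Benjamini-Hochberg adjustment at 0.05 over 19774 genes or 54715 probe sets. A gene was represented by its probe set with 1 symbol in the platform annotation (40920 probe sets) and the highest mean over the 30 columns of the fenbuconazole set. Probe sets with several symbols (864) or none listed (12931) were tested, and of these only the probe set shared by CYP2B6 and CYP2B7P is named. Array differences within a replicate are the 3 µM array minus the mean of its 5 low arrays. Comparisons between chemicals used interaction contrasts on 36 arrays with the batch code within each chemical as a block, each change taken within its own RMA set. The steps were tested on simulated data. Sequences and gene order came from RefSeq tables of GRCh38.p14. Plots were made in Python 3.11.15 with matplotlib 3.10.9.

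Per the study's methods, each replicate was a separate experiment with its own batch of cells. As a check, deviations from group means correlated at a mean r of 0.108 within a replicate number. For 15 of 18 arrays the array of another concentration with the highest r shared the number. The mean r between numbers was -0.0538. It is no separate evidence, because subtracting group means pushes it below 0 when the r within numbers is above 0. Single pairs of the same number went down to -0.0947, and the 3 µM array of replicate 2 had a mean r of -0.0302 with the low arrays of its number.

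Named genes are the 12 largest rises and falls among genes past the threshold, a fixed set that includes CYP2B6, CYP3A4, CYP3A7, CYP2C8, CYP1A1, CYP1A2, ALAS1, POR, HMGCS1, CYP51A1 and INHBE, the 2 members of each list with the smallest p, the 10 smallest p, up to 5 genes per comparison of chemicals, and the 5 genes most like CYP2B6. Genes beside the 7 in the gene order, the other members given for the cholesterol, CAR and PXR and lipid lists, and the marker levels were picked with their values in view. The comparison, the 31 gene lists and the 5 marker lists were chosen with earlier results of these data known. The alternatives were other references, other pools, other summaries of probe sets, filters, priors, centring, leaving out replicates and leaving out the block.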

Additional observations from a re-analysis of the deposited data

Results flagged for a closer look

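For 7 results the change at 3 µM, each taken against the low pool of the same chemical, differed between chemicals by limma's interaction contrast with Benjamini-Hochberg adjustment over 19774 genes. Against imazalil, the change with fenbuconazole was lower for CYP2B6 by a log2 difference of -1.67 (SE 0.14, adjusted p = 3.35e-09), for CYP3A7 by -1.03 (SE 0.10, adjusted p = 9.99e-08), for CYP3A4 by -1.15 (SE 0.12, adjusted p = 4.18e-07), for CYP1A1 by -1.67 (SE 0.21, adjusted p = 9.27e-06) and for ZSCAN25 by -1.24 (SE 0.19, adjusted p = 0.000561). Within the 3 batches of imazalil, ZSCAN25 changed by 1.64, 2.08 and 2.68. Against 2,4-D, the change with fenbuconazole was higher for CYP2B6 by 1.63 (SE 0.13, adjusted p = 2.99e-10) and for CYP3A4 by 0.75 (SE 0.11, adjusted p = 0.000512). The CYP3A4 result against 2,4-D passed under 4 of 7 alternatives and was lost without replicate 1, without replicate 3 and without the replicate block, with an adjusted p of up to 0.453. The CYP1A1 levels with fenbuconazole lie near the array medians, and whether they are above background was not tested. With 2,4-D, CYP2B6 changed by -0.00, 0.08 and 0.05 within the batches. For each of CYP2B6, CYP3A4, CYP3A7 and ZSCAN25, fenbuconazole and imazalil moved in the same direction.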

How the results depend on the processing

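CYP2B6 kept its direction and its call under all 19 alternatives, at 1.15 to 1.74. CYP3A4 kept its call under 18 and ZSCAN25 under 17, and both lost it with DMSO as reference (adjusted p = 0.385). CYP2A6 and CYP3A7 kept theirs under 8 each, TM6SF2 under 6 and TMEM97 under 4, all with the same sign, at 0.60 to 0.74, 0.29 to 0.60, -0.57 to -0.31 and 0.32 to 0.40. Without the replicate block the number of genes past the threshold was 4 in place of 7 (3 higher), namely CYP2B6, CYP3A4, ZSCAN25 and TM6SF2, and the difference from 2,4-D held for 1 gene, CYP2B6, in place of 2. With DMSO as reference, 3 arrays against 3, it was 1 (1 higher, 0 lower, with 1944 genes at an unadjusted p under 0.05). Without 0.01 µM or without 0.1 µM in the pool it was 3 (3 higher, 0 lower), and with all 30 columns in the fit 4 (0 lower). Fewer arrays enter the fits with DMSO or a smaller pool. TM6SF2 was also lost (0 lower) without 0.03 µM in the pool, with 5 separate low group means and with the mean of the probe sets of a gene. Leaving out a replicate, or a 3 µM array, gave 3 to 3 genes, 3 to 3 higher and 0 to 0 lower. The difference from imazalil covered 5 to 27 genes over these omissions, 27 without replicate 2, with the same 5 among them, and the difference from 2,4-D 1 to 2 genes, 1 without replicate 3. The mean of probe sets and centring on the array median each gave 4 genes for 2,4-D. The direction turned for CYP1A1 without replicate 1 (-0.0041 with all its arrays or with its 3 µM array left out, in a range up to 0.151 over these omissions) and for INHBE with DMSO as reference (0.019), neither of them past the threshold. The cause of these changes was not tested. Over the genes followed in the main comparison and in the differences between chemicals, 328 values kept direction and side of the threshold, 56 lost and 3 gained the threshold, and 3 turned.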

Other observations

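Among genes that did not pass the threshold, the smallest p belonged to HSPBAP1, a protein that binds a small heat shock protein, with a log2 difference of 0.34 (SE 0.07, adjusted p = 0.111 by limma). It was 0.20, 0.43 and 0.39 within the replicates, and it passed with the mean of the probe sets (adjusted p = 0.0251) and with the filter on dim probe sets (adjusted p = 0.0397). In replicates 1, 2 and 3, HSPBAP1 read 4.77, 5.42 and 5.31 at 3 µM and 4.97, 4.39 and 5.18 with DMSO alone. At 10 µM it read 4.53, 4.81 and 4.91, within the range of the low arrays. MTFR2, a mitochondrial fission regulator, differed by 0.41 (SE 0.09, adjusted p = 0.326), and its 3 arrays at 3 µM lay above the low pool of 3.99 to 4.61. In replicates 1, 2 and 3, MTFR2 read 4.69, 4.65 and 4.77 at 3 µM and 4.56, 4.66 and 4.31 with DMSO alone. Its difference went down to 0.20 over the 19 alternatives. H19, an imprinted non-coding RNA, differed by -0.43 (SE 0.10, adjusted p = 0.434) and was lower in each replicate than all its low arrays. In replicates 1, 2 and 3, H19 read 5.34, 5.94 and 5.98 at 3 µM and 5.81, 6.15 and 5.88 with DMSO alone. One probe set past the threshold over probe sets carries the symbols of both CYP2B6 and its pseudogene CYP2B7P and differed by 1.91 (SE 0.09).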
